A study of Mus musculus with 12 samples.

Results

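The 8 genes described here carry fatty acids into the adipocyte and prepare them for use: Lpl, Cd36, Slc27a1, Slc27a4, Fabp4, Fabp5, Acsl4 and Acsl5. They were chosen by name, as genes of fatty acid uptake, binding and activation, and were found through the gene symbols of the array annotation. All 8 had a single transcript cluster (the array's unit of measurement, a set of probes for a transcript), out of 19480 genes that the annotation named. Lipoprotein lipase, the product of Lpl, frees fatty acids from circulating triacylglycerol outside the cell. CD36 and the fatty acid transport proteins of the Slc27 family move them across the plasma membrane, the fatty acid binding proteins Fabp4 and Fabp5 hold them in the watery cytosol, and the long-chain acyl-CoA synthetases Acsl4 and Acsl5 join them to coenzyme A. Only the CoA form can enter triacylglycerol, phospholipid or oxidation, so activation also traps the acid inside the cell.

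The cells were 3T3-L1, a mouse preadipocyte line that accumulates lipid under a hormone cocktail and serves as a culture model of white fat. RNA was taken on day 8 of differentiation from 4 groups of 3 arrays each, with cells of passage 6, 7 and 8 in every group. From day 0 on, the control group received ethanol and DMSO, the ALA group received alpha-linolenic acid (ALA, the plant omega-3 fatty acid) at 50 µM together with 2% albumin stripped of fatty acids, the inhibitor group received a delta-6-desaturase (D6D) inhibitor at 5 µM, and the last group received both. The D6D enzyme takes ALA into the long, highly unsaturated omega-3 fatty acids, so the layout asks what ALA and its conversion do to the adipocyte. All groups shared the differentiation cocktail and then insulin at 5 µg/ml. In the labels, albumin is named for the ALA medium alone and ethanol with DMSO for the control alone, so an effect of ALA and an effect of albumin cannot be told apart here. The replicates are passages of a single cell line, and p-values of the treatment comparisons therefore measure the spread between its cultures.

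The arrays gave log2 signals for 22104 clusters, with array medians from 6.14 to 6.27. The ALA array of passage 7 correlated with the other arrays at 0.976 to 0.987 across clusters, lower than the 0.989 to 0.994 found among the other 11, and the main values that turn on it are given with and without it. Treatment fits that leave out a single array keep its passage in the other groups. Their groups are then not matched by passage, and a shift in such a fit can also come from passage. The adipocyte label fits the markers: 7 of 7 measured adipocyte markers, Adipoq among them, lay above the array median on all 12 arrays, whereas 7 of 7 endothelial and 6 of 7 macrophage markers lay below it on all 12, Cd14 being the other. Of 5 preadipocyte markers, 4 lay above the median on all 12 arrays, Dlk1 among them. These are bulk cultures, in which fewer cells of a type and less RNA per cell cannot be told apart. All 8 genes of the set lay above the median on all 12 arrays, and in what follows levels are compared only within a gene.

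**Figure D1:**
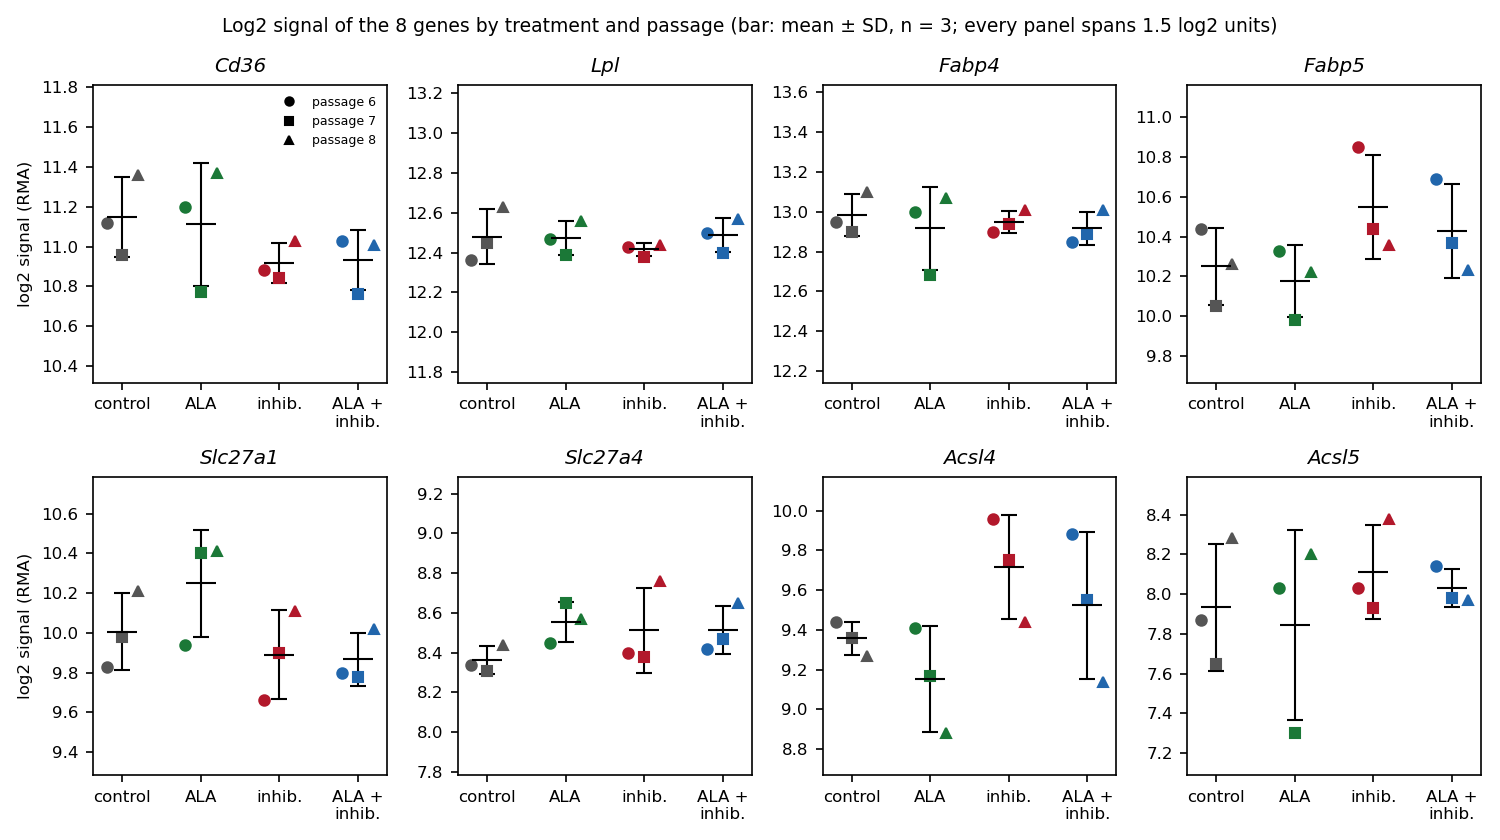
Log2 signal (RMA, vertical axes) of the 8 genes in control, ALA, inhibitor and ALA plus inhibitor cells (horizontal axes), 1 point per array with its shape for the passage; bars are the mean ± SD of 3 arrays and every panel spans 1.5 log2 units. Lpl and Fabp4 stay within narrow bands, Acsl4 and Fabp5 sit higher with the inhibitor than in the matching arm of the same passage without it, and the low points of Cd36, Fabp4 and Acsl5 in the ALA group are the array of passage 7.

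Passage accounted for more of the spread of these genes than treatment did, except in Acsl4. Of the sum of squares over the 12 arrays, passage took 40.93% in Slc27a4 at the least and 58.29% in Lpl at the most, whereas the median over all clusters was 23.41%, and 23.91% of clusters reached 40.93% or more. Treatment took 47.79% in Acsl4, 44.45% in Slc27a1 and 39.62% in Fabp5, against a median of 25.33% over all clusters. For Fabp4 the treatment share was 6.438%. The SD over the 12 arrays also separated the genes. For Lpl it was 0.08368, at percentile 3.257 among all clusters, and for Fabp4 0.1123, at percentile 10.29. Both lie near the top of the array's range, with highest values of 12.63 and 13.1 where the highest signal of any cluster was 13.44, and whether a ceiling of the signal narrows their spread was not tested. Acsl4, with an SD of 0.3151 at percentile 87.57, and Acsl5, with 0.2886 at percentile 81.3, were among the more variable.

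Lpl, the lipase that supplies fatty acids from lipoproteins, did not differ between treatments beyond the spread of the passages. Its level was 12.48 ± 0.14 in control, 12.47 ± 0.08 with ALA, 12.42 ± 0.03 with the inhibitor and 12.49 ± 0.09 with both (mean ± SD of log2 signal, n = 3 each). The difference between inhibitor and control was -0.06 (limma, 95% interval -0.30 to 0.17) and that between ALA and control -0.01 (-0.24 to 0.23), so the data leave room for shifts of about that size in either direction.

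Cd36 encodes the fatty acid translocase, a membrane receptor that binds long-chain fatty acids and is a textbook target of the adipogenic factor PPARγ. Its promoter is shown because the gene is the set's main uptake receptor. The sequence is the 250 bases before the RefSeq start (GRCm38.p6, chr5:17835897-17836146, minus strand), read 5′ to 3′ in the direction of transcription, and capitals mark matches to the motifs searched.
Cd36: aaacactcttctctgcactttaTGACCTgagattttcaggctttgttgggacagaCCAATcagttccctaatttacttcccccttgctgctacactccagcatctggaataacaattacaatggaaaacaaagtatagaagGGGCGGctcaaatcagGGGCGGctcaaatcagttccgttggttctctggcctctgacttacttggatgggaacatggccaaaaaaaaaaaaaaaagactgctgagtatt
The matches are a nuclear receptor half-site (AGGTCA, here on the reverse strand, from 228 to 223 bases before the start), a CCAAT box at 195 to 191 and 2 GC boxes (GGGCGG) at 109 to 104 and 93 to 88. Both strands were searched. Among 32851 mouse promoter windows of 250 bases, 14% held AGGTCA, 33.8% held CCAAT and 32.7% held GGGCGG, so each of these is common. The full direct repeat, AGGTCA followed by any base and AGGTCA again, which occurs in 0.0335% of windows, the C/EBP letters TTGCNNAA (9.56%) and the TATA box TATAAA (12.4%) were not found in this window. GC content was 43.2%, below the median of 52.4% over all windows.

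Cd36 measured 11.12, 10.96 and 11.36 in control cells of passages 6, 7 and 8, and 11.20, 10.77 and 11.37 with ALA. With the inhibitor it measured 10.88, 10.84 and 11.03, and with both agents 11.03, 10.76 and 11.01. Passage 7 was the lowest of the 3 passages in all 4 treatments, and the groups overlapped. Within each passage the inhibitor arms were the lower ones, in 6 of 6 pairs with and without ALA, though by as little as 10.76 against 10.77 in ALA cells of passage 7. The difference was -0.23 without ALA (SE 0.16, 95% interval -0.58 to 0.12, limma adjusted p = 1) and -0.18 with ALA (adjusted p = 0.78). Without the ALA array of passage 7 the latter was -0.35 (adjusted p = 0.99), in a fit that kept passage 7 in the arm with both agents. These differences did not pass the test.

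Slc27a1 encodes FATP1, the insulin-responsive transport protein of adipocytes and muscle, which also has acyl-CoA synthetase activity. RefSeq gives it 3 start sites on the plus strand, and the window before the one farthest downstream (chr8:71570344-71570593) is shown because it held the most motif matches of the 3. It is printed in the same way, and GC content was 58.4%.
Slc27a1: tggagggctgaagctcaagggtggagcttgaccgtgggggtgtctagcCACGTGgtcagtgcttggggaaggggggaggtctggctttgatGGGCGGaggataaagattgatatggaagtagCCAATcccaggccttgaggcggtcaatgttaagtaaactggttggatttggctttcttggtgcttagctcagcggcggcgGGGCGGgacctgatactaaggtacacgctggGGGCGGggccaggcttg
Capitals mark an E-box (CACGTG, 202 to 197 bases before the start, present in 6.02% of all windows), a CCAAT box at 128 to 124 and 3 GC boxes at 159 to 154, 48 to 43 and 17 to 12. No AGGTCA was found in this window. Slc27a4, the related transporter FATP4, had 2 GC boxes in its window and none of the other motifs.

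Slc27a1 was highest with ALA alone, at 9.94, 10.40 and 10.41 in passages 6, 7 and 8, against 9.83, 9.98 and 10.21 in control. It measured 9.66, 9.90 and 10.11 with the inhibitor and 9.80, 9.78 and 10.02 with both agents. Within each passage the ALA array lay above the other 3 arrays, but across passages the groups overlapped. The means were 10.25 ± 0.27 with ALA, 10.01 ± 0.19 in control, 9.89 ± 0.22 with the inhibitor and 9.87 ± 0.13 with both. Neighbours in that order did not differ beyond their spread. The difference between both agents and ALA alone was -0.39 (SE 0.16, 95% interval -0.74 to -0.03, limma adjusted p = 0.68), a 1.31-fold lower signal in 3 of 3 passages.

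The call on that difference in Slc27a1 depended on the model and on single arrays. The series used an unadjusted p under 0.01, which the difference missed with all arrays and met with passage as a block (adjusted p = 0.34). It also met it without the ALA array of passage 6, at -0.54 (adjusted p = 0.34), and missed it without that of passage 7, at -0.31 (adjusted p = 0.99). Over the fits that left out single arrays the adjusted p ran from 0.34 to 0.99.

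Slc27a4 measured 8.45, 8.65 and 8.57 with ALA, against 8.34, 8.31 and 8.44 in control. The difference was 0.20 (SE 0.13, 95% interval -0.08 to 0.47, limma adjusted p = 1), and 0.15 (adjusted p = 1) without the ALA array of passage 7. With the inhibitor it measured 8.40, 8.38 and 8.76, a spread that covered the values with both agents of 8.42, 8.47 and 8.65.

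The binding proteins gave opposite pictures. Fabp4, the abundant lipid chaperone of mature adipocytes, was level across treatments at 12.99 ± 0.10 in control, 12.92 ± 0.21 with ALA, 12.95 ± 0.06 with the inhibitor and 12.92 ± 0.08 with both. Its treatment differences ran from -0.07 to 0.00, and the lowest bound of their 95% intervals was -0.33 while the highest was 0.27. The larger SD with ALA came from passage 7, at 12.68 against 13.00 and 13.07 in passages 6 and 8. With that array left out, ALA differed from control by 0.05 and both agents from ALA by -0.12 (adjusted p = 1 and 0.99).

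Fabp5, the epidermal-type chaperone that adipocytes and macrophages also make, was higher with the inhibitor in each passage. It measured 10.85, 10.44 and 10.36 with the inhibitor in passages 6, 7 and 8, against 10.44, 10.05 and 10.26 in control. In cells given ALA it measured 10.69, 10.37 and 10.23 with the inhibitor and 10.33, 9.98 and 10.22 without. The gap was 0.41, 0.39 and 0.10 in passages 6, 7 and 8 without ALA and 0.36, 0.38 and 0.01 with it, so passage 8 stood apart from the other passages. The difference was 0.30 without ALA (SE 0.17, 95% interval -0.07 to 0.67, limma adjusted p = 1) and 0.25 with it (adjusted p = 0.73), neither past the test. The latter, without the ALA array of passage 7, was 0.16 (adjusted p = 0.99), and over all fits that left out single arrays it ran from 0.12 to 0.35. Within every passage the array with ALA was slightly lower than the matching array without, with differences from -0.16 to -0.04 in 6 of 6 pairs. The mean difference between ALA and control was -0.07, and 0.02 without the ALA array of passage 7 (adjusted p = 1 for both). The latter fit kept the control of passage 7, the lowest control at 10.05. Within passages 6 and 8 the differences were -0.11 and -0.04. Summed over macrophage markers, the log2 signal ranged from 7.90 to 8.02 in control and from 7.82 to 8.02 with the inhibitor. It ranged from 7.84 to 7.98 with ALA and from 7.93 to 7.99 with both agents. The sum covers opposite shifts: against control, 1 of the 7 markers was higher with the inhibitor, Cd14 by 0.32, and 6 were lower. Whether macrophage genes have a part in the Fabp5 differences was not tested.

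Acsl4 encodes the synthetase that prefers arachidonic acid and other highly unsaturated fatty acids, the class of molecule that D6D helps to make. Its promoter is shown because the gene had the largest treatment share in the set. The window (chrX:142390536-142390785, minus strand) had a GC content of 70.8%, above the median of all windows.
Acsl4: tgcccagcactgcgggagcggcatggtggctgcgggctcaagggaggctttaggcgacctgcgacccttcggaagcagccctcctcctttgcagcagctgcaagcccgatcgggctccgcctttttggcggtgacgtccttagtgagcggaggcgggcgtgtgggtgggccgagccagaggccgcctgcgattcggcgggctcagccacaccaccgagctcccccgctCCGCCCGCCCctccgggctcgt
Capitals mark 2 GC boxes on the reverse strand, at 22 to 17 and 18 to 13 bases before the start, which overlap by 2 bases. None of the other motifs was found, so its window shared only the GC box with that of Slc27a1. Acsl5 had a single CCAAT box, at 117 to 113. Lpl, Fabp4 and Fabp5 were not matched in the promoter table, and their promoters are not shown.

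Acsl4 was highest with the inhibitor and lowest with ALA within each passage. It measured 9.96, 9.75 and 9.44 with the inhibitor in passages 6, 7 and 8, 9.88, 9.55 and 9.14 with both agents, 9.44, 9.36 and 9.27 in control, and 9.41, 9.17 and 8.88 with ALA. Every passage gave higher signal with the inhibitor, by 0.17 to 0.52 over 6 of 6 pairs, and lower signal with ALA, with differences from -0.40 to -0.03 over 6 of 6 pairs. In passage 8 the arrays with both agents (9.14) and in control (9.27) stood in the reverse of their order in passages 6 and 7. The passages differed nearly as much as the treatments, with means from 9.18 to 9.67 over passages and from 9.15 to 9.72 over treatments. Across passages the groups overlapped.

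The differences in Acsl4 were similar in size with and without ALA. The inhibitor gave 0.36 against control (SE 0.20, 95% interval -0.06 to 0.79, limma adjusted p = 1) and 0.37 in cells given ALA (-0.05 to 0.80, adjusted p = 0.7), a 1.29-fold higher signal. With passage as a block both met the series' unadjusted threshold, with adjusted p of 0.67 and 0.38. The interaction was 0.01 with a 95% interval from -0.59 to 0.61, which is too wide to show that the effects were alike. ALA gave -0.21 against control (95% interval -0.63 to 0.22) and -0.19 on top of the inhibitor (-0.62 to 0.23), with adjusted p = 1 for both.

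Acsl5, a synthetase of mitochondria and endoplasmic reticulum, showed no order by treatment. Its means were 7.93 ± 0.32 in control, 7.85 ± 0.48 with ALA, 8.11 ± 0.24 with the inhibitor and 8.03 ± 0.10 with both. The lowest of its 12 values was 7.30, on the ALA array of passage 7. Without that array the difference between ALA and control was 0.18, where it was -0.09 with it (adjusted p = 1 for both), and that between both agents and ALA was -0.09, where it was 0.18 with it. With passage 7 left out of every group these differences were 0.04 and -0.06.

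**Figure D2:**
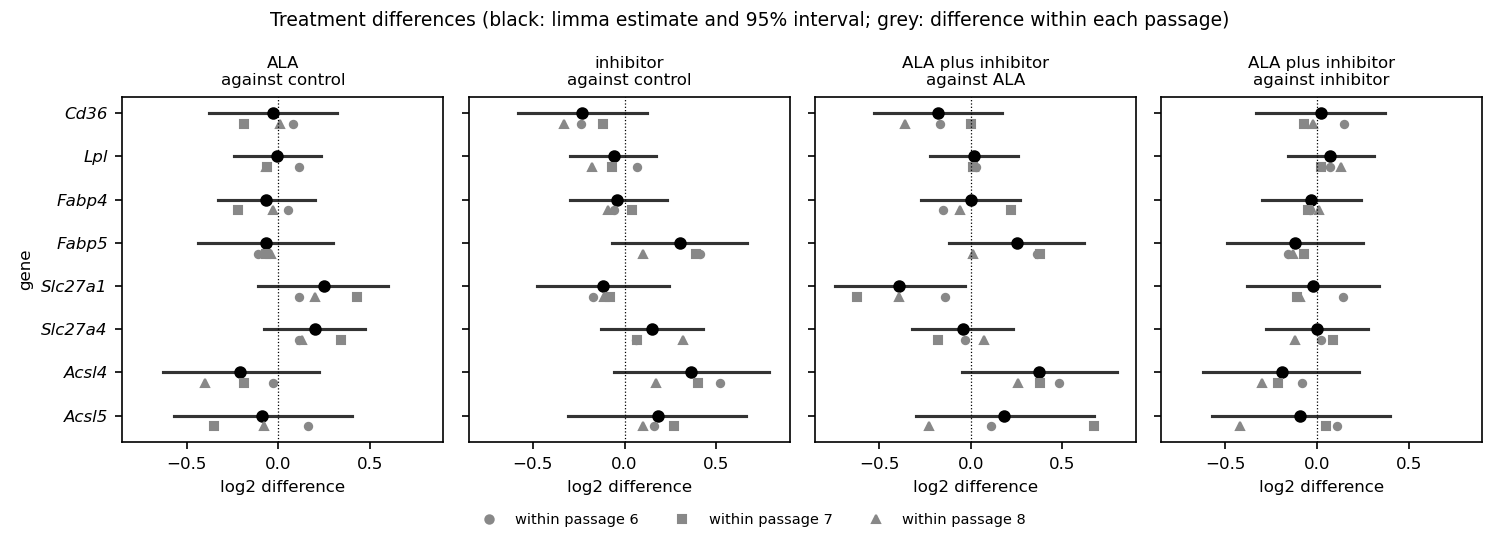
Log2 differences (horizontal axes) of the 8 genes (vertical axis) in 4 comparisons; black points and bars are the limma estimates with 95% intervals, and grey circles, squares and triangles are the differences within passages 6, 7 and 8. All intervals include 0 but that of Slc27a1 for ALA plus inhibitor against ALA (-0.74 to -0.03), and the grey points of Acsl4 lie to the right of 0 in both comparisons that add the inhibitor.

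Set against all clusters, the ALA comparisons gave no calls. For ALA against control, 2 of the 8 genes were higher and 6 lower, with a median of -0.05 against 0.01 over all clusters. That tally changed without the ALA array of passage 7. Then 7 were higher, and Acsl4 alone was lower at -0.21, with a median of 0.10 against 0.01. That fit kept the passage 7 control, so the groups no longer matched by passage. With passage 7 left out of every group, Cd36, Lpl, Fabp4 and Acsl5 were higher by only 0.04, 0.02, 0.01 and 0.04. Fabp5 differed by -0.11 and -0.04 within passages 6 and 8. With all arrays none was called by limma at the series' threshold of unadjusted p under 0.01, where 0.525% of all clusters were, none at p under 0.05 (3.41% of clusters), and none at an adjusted p under 0.05 (0.0%). For both agents against the inhibitor alone, 3 were higher and 5 lower with a median of -0.02 against -0.01. Again 0 of 8 were called at p under 0.01 (0.728% of clusters), 0 at p under 0.05 (3.56%) and 0 after adjustment (0.0%). The interaction of ALA with the inhibitor also gave 0 of 8, beside 0.638% of clusters at p under 0.01, 3.42% at p under 0.05 and 0.0% after adjustment.

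The inhibitor comparisons placed Acsl4 and Fabp5 at the upper end and Slc27a1 and Cd36 at the lower end. Against control, 4 of the 8 genes were higher and 4 lower, with a median of 0.06 against 0.00 over all clusters and a range from -0.23 to 0.36. None was called at p under 0.01 (0.855% of clusters), at p under 0.05 (4.32%) or after adjustment (0.0%). Against ALA alone, 5 were higher and 3 lower, from -0.39 to 0.37 with a median of 0.01 against -0.02. The balance turned, without the ALA array of passage 7, to 3 higher and 5 lower, with a median of -0.06 against -0.01. With all arrays, at p under 0.01 there were 0 of 8 (1.47% of clusters), at p under 0.05 there was 1, Slc27a1 (7.27%), and after adjustment 0 (0.0%). Without that ALA array the gene under 0.05 was Cd36, 1 of 8 beside 4.78%. That fit kept passage 7, the lowest for Cd36, in the arm with both agents only. Within passages 6 and 8 Cd36 differed by -0.17 and -0.36. With passage as a block, Acsl4 and Slc27a1 were called at p under 0.01 in that comparison, 2 of 8 beside 2.54% of clusters. The block stands beside this comparison because its same-passage arrays correlated, as deviations from group means, at 0.16 or more in all 3 passages. Each other treatment comparison was also positive throughout, but held a passage at 0.09 or less. Even so, same-passage arrays were the best match in 3 of 3 passages for inhibitor against control and for both agents against inhibitor. For ALA against control they were the best match in 2 of 3.

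The inhibitor's 2 comparisons share no arrays, and so they were averaged in a test that was added after the data had been seen. Acsl4 then differed by 0.37 (95% interval 0.07 to 0.67), Fabp5 by 0.28 (0.01 to 0.54) and Slc27a1 by -0.25, with limma adjusted p of 0.52, 0.55 and 0.57. At p under 0.01 there were 0 of 8 genes, beside 1.9% of clusters, at p under 0.05 there were 3 (8.76%), and after adjustment 0 (0.0%). With passage as a block the same 3 genes were called at p under 0.01, beside 3.39% of clusters, with adjusted p of 0.2, 0.26 and 0.27, and after adjustment 0 of 8 were (0.0362%). In the fit without the ALA array of passage 7, 2 of 8 were under 0.05 (6.65% of clusters): Acsl4 at 0.37 and Cd36 at -0.29. That fit, too, left the groups unmatched by passage. Without the inhibitor array of passage 8, Acsl4 differed by 0.44 (adjusted p = 0.6), and without the array of passage 8 with both agents by 0.46 (adjusted p = 0.49), and both fits met the series' unadjusted threshold. By sign alone, 4 of the 8 genes went the same way in all 6 pairs: Acsl4 and Fabp5 higher, Slc27a1 and Cd36 lower. Among all clusters 8.351% did so. For ALA, Acsl4 and Fabp5 were lower in 6 of 6 pairs, 2 of 8 genes against 3.75% of clusters, and the averaged ALA test, added at the same time, called 0 of 8 at p under 0.01 (0.575% of clusters), 0 at p under 0.05 (3.53%) and 0 after adjustment (0.0%).

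The signs of the preadipocyte markers leaned lower in the arms with the inhibitor, with no call at p under 0.01 against control or against ALA alone. Of the 5 measured, 0 had a positive difference, with a median of -0.32 against control and -0.30 against ALA alone, where 49.25% and 46.58% of all clusters did. At p under 0.01 there were 0 of 5 in either comparison, at p under 0.05 there were 1 (4.32% of clusters) and 2 (7.27%), and after adjustment 0. With the ALA array of passage 7 left out, 1 of 5 had a positive difference against ALA, Cd34 at 0.19, and the median was -0.29. Without that array the averaged inhibitor test called 1 of 5 at p under 0.01, beside 1.41% of clusters. This was Dlk1 at -0.31 (limma adjusted p = 0.69). Dlk1, the preadipocyte factor, differed by -0.32 (limma adjusted p = 1) and -0.30 (adjusted p = 0.68). The summed preadipocyte signal ranged from 12.25 to 12.63 with the inhibitor and from 12.59 to 12.78 in control, and from 12.19 to 12.68 with both agents and from 12.58 to 12.83 with ALA. Of the adipocyte markers 1 of 7 had a positive difference against control, Adipoq at 0.04, and the median was -0.08. Cebpa, an adipogenic transcription factor, differed by -0.26 against control and -0.25 against ALA (adjusted p = 1 and 0.68), and its averaged difference of -0.25 met the unadjusted threshold of 0.01 (adjusted p = 0.5), as did 1.9% of clusters. Without the ALA array of passage 7 the averaged test called 1 of 7 adipocyte markers, Cebpa at -0.24, beside 1.41% of clusters. Whether the balance of cell states has a part in the inhibitor differences of Acsl4, Fabp5, Slc27a1 and Cd36 was not tested.

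Only the passage comparison gave a call after adjustment among the 8 genes. Its model held treatment, whereas the main treatment fits left passage in the spread, so the p-values of these fits are not on a like footing. With passage as a block, the averaged inhibitor test called 3 of 8 at p under 0.01, as passage did, though none after adjustment. Each passage held an array of every treatment, so the test of passage takes the treatments as replicates. Its p-value measures how evenly a difference held across them, not the spread between independent cultures of a passage. From passage 6 to passage 8, in a model with treatment, Acsl4 fell by 0.49 on the log2 scale (SE 0.10, 95% interval -0.71 to -0.27, limma adjusted p = 0.036), a 1.41-fold change. It stepped down from passage 6 to 7 and from 7 to 8 in all 4 treatments, with -0.17 in control over both steps and -0.74 with both agents. Slc27a1 went the other way, 0.38 higher (SE 0.09, 95% interval 0.18 to 0.58, adjusted p = 0.075). Its signal was 9.66 to 9.94 in passage 6 and 10.02 to 10.41 in passage 8. Fabp5 differed by -0.31 (SE 0.10, 95% interval -0.53 to -0.10, adjusted p = 0.15), and passage 6 was its highest in all 4 treatments.

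**Figure D3:**
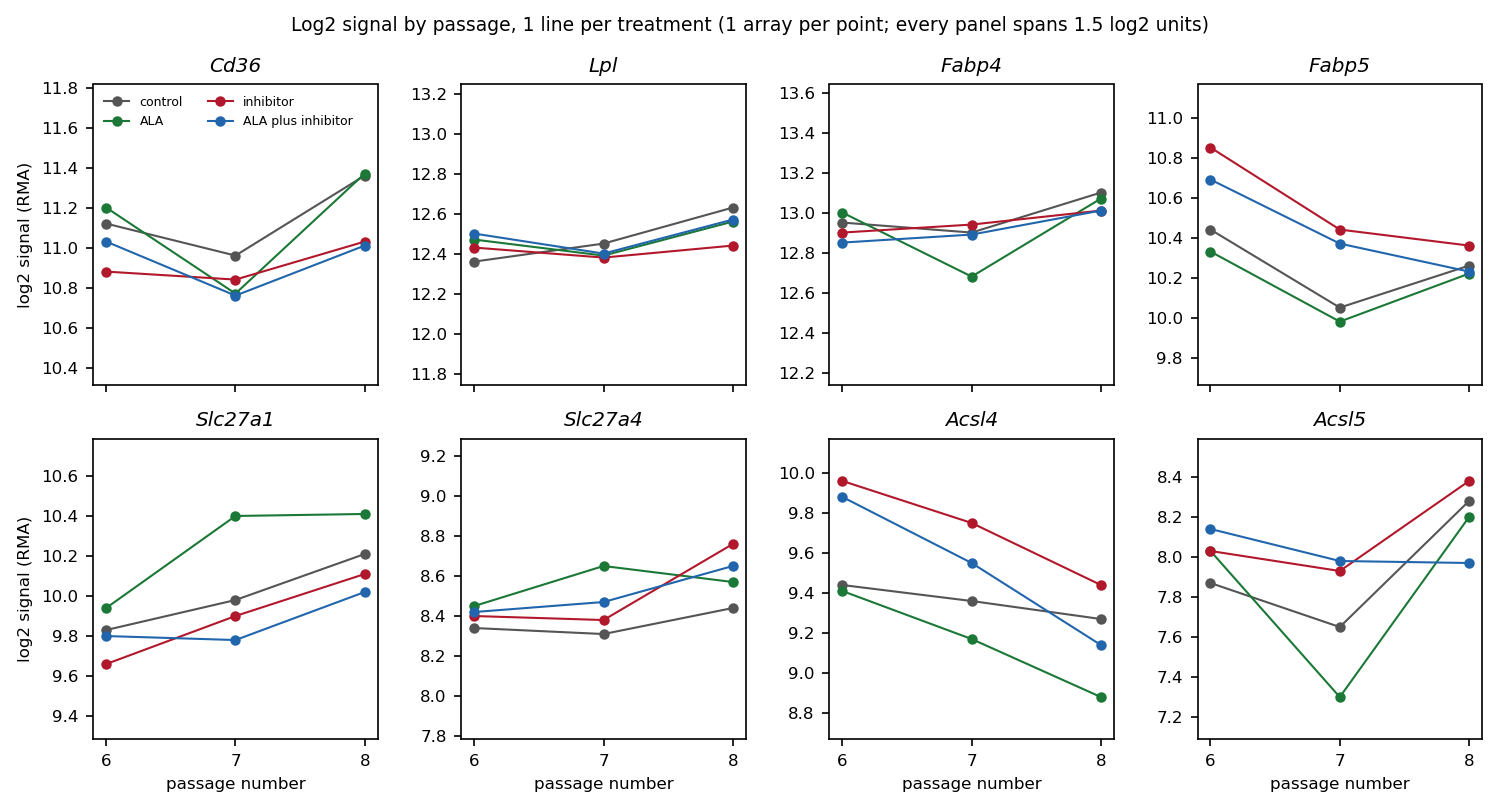
Log2 signal (RMA, vertical axes) of the 8 genes against passage number 6, 7 and 8 (horizontal axes), with a line per treatment and 1 array per point; every panel spans 1.5 log2 units. The 4 lines of Acsl4 slope down throughout, those of Slc27a1 end higher than they start, and those of Cd36 dip at passage 7.

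The other transcripts moved less between passages 6 and 8. Slc27a4 differed by 0.20 (limma adjusted p = 0.34), Cd36 by 0.13, Lpl by 0.11, Fabp4 by 0.12 and Acsl5 by 0.19, with adjusted p from 0.57 to 0.59 for the last 4. Fabp4 measured 12.85 to 13.00 in passage 6 and 13.01 to 13.10 in passage 8. In sum 3 of 8 genes were called at p under 0.01, where 5.95% of clusters were, 4 at p under 0.05 (14.6%), and 1, Acsl4, after adjustment (1.91%). Their median was 0.13 against -0.01 over all clusters. By sign, 6 of 8 went the same way in all 4 treatments, as did 25.91% of clusters.

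The adjusted call on Acsl4 in passage rested on the full set of arrays. It ended in 9 of 12 fits that left out an array, with adjusted p from 0.037 to 0.14, and was kept without control 6 (0.048), ALA 7 (0.037) or control 8 (0.041). Acsl4 and Slc27a1 met the unadjusted threshold in 12 of 12 such fits, and Fabp5 in 4 of 12. Slc27a1 reached an adjusted p of 0.039 without ALA 7. On the 8 arrays of the compared passages alone, Acsl4 had an adjusted p of 0.11. With passage alone in the model, Acsl4, Slc27a1 and Fabp5 all missed the unadjusted threshold, with adjusted p of 0.18, 0.2 and 0.3.

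Some adipocyte and some preadipocyte markers were called higher in passage 8. Of the adipocyte markers, 7 of 7 had a positive difference from passage 6, as did 47.12% of all clusters, with a median of 0.19. Of these, 3 were called at p under 0.01 (5.95% of clusters) and 0 after adjustment (1.91%), and the summed signal was 14.92 to 14.97 against 14.64 to 14.84. Of the preadipocyte markers, 5 of 5 had a positive difference with a median of 0.23, and 2, Pdgfrb and Sox9, were called at p under 0.01 and after adjustment, with summed signals of 12.63 to 12.83 against 12.19 to 12.59. Adipoq differed by 0.17 and Dlk1 by 0.23. Their part in the passage differences of Acsl4, Slc27a1 and Fabp5 was not tested.

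Across the 12 arrays the genes formed a pattern that followed these differences. Acsl4 and Fabp5 correlated at r = 0.82, and both ran against Slc27a1, at -0.84 and -0.75. Cd36, Lpl and Fabp4 varied together, with r of 0.78 for Cd36 and Fabp4, 0.70 for Cd36 and Lpl and 0.62 for Lpl and Fabp4. These are descriptions over arrays that share passages and treatments, with no test. Without the ALA array of passage 7 the values for Acsl4 were 0.82 with Fabp5 and -0.85 with Slc27a1. Fabp4 and Slc27a1 correlated at 0.09 over 12 arrays and at 0.85 over the 11, so that pair turned on that array.

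**Figure D4:**
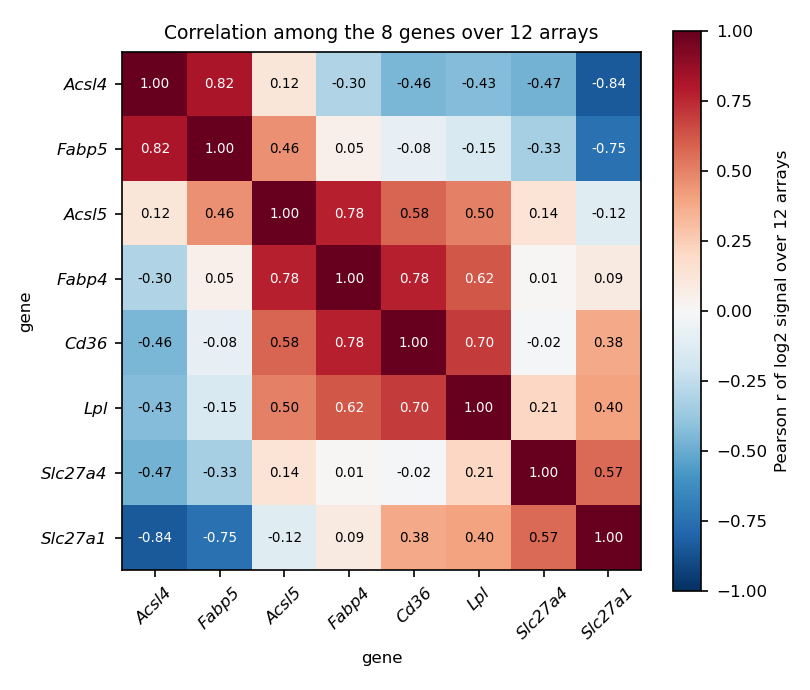
Pearson r of log2 signal over 12 arrays for each pair of the 8 genes (both axes), with the value printed in each cell and colour from -1 (blue) to 1 (red). Acsl4 and Fabp5 share a red block at 0.82, and their cells with Slc27a1 are blue at -0.84 and -0.75.

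Among 10043 other genes with a mean at or above the median of all clusters, the closest patterns over the 12 arrays were as follows. Acsl4 ran closest to Serpinb6a (r = 0.962), Map1lc3a (0.961) and Mark4 (0.936). Fabp5 ran closest to Nelfe (0.956), the peroxisomal carnitine acyltransferase gene Crot (0.945) and Riok2 (0.931). For Slc27a1 they were Glis3 (0.959), Srpx2 (0.952) and Nfrkb (0.952), and for Slc27a4 Krr1 (0.888), Negr1 (0.863) and Hey1 (0.850). The transcripts nearest to Cd36 were Ube2n (0.935), Rasa3 (0.905) and Cnnm4 (0.901), and those nearest to Lpl were Tpm1 (0.905), Map3k14 (0.903) and Ptma (0.902). Fabp4 matched Gm14308 (0.997), Gm2026 (0.978) and Caprin1 (0.971), and Acsl5 matched Zfp980 (0.972), Ehd4 (0.969) and Snx1 (0.957). With so many candidates and 12 arrays, high values are found for every gene, and they are given as descriptions. Without the ALA array of passage 7 they ran from 0.824 for Hey1 to 0.996 for Gm14308.

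The wider pathway was read from 43 further genes of uptake, binding, activation, control of lipoprotein lipase and acyl-CoA hydrolysis, of which 40 were measured. Acsl1, the main synthetase of adipocytes, and Acsl3 and Apoc2 were not analysed here. None of the 40 was called at p under 0.01 in the 4 treatment comparisons or the interaction, and at p under 0.05 there were 1, 2, 0, 1 and 0, beside 3.41%, 4.32%, 7.27%, 3.56% and 3.42% of clusters. Between passages 6 and 8, 4 of 40 were called at p under 0.01, beside 5.95% of clusters, all higher in passage 8: the caveolar genes Cav1 (0.26) and Cavin1 (0.35), the lipase inhibitor Angptl4 (0.45) and the thioesterase Acot7 (0.25). At p under 0.05, Slc27a2 (0.38), the binding protein Fabp3 (0.39) and the lipase maturation factor Lmf1 (0.24) were added, making 7 of 40 beside 14.6% of clusters, and 0 passed the adjusted threshold (1.91%). The median over the 40 was -0.01, as over all clusters.

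Control of the lipase gave no calls with treatment. Gpihbp1, which anchors lipoprotein lipase on endothelium, differed by 0.14 with ALA, or by -0.03 without the ALA array of passage 7, and by 0.04 with the inhibitor. Angptl4 differed by -0.19 with ALA, or by -0.04 without that array, and by -0.30 with the inhibitor. Angptl8, a partner of the angiopoietin-like inhibitors, differed by -0.40 with the inhibitor (SE 0.15), and the peroxisomal acyl-CoA binding gene Acbd5 by -0.28 (SE 0.12), both with a limma adjusted p = 1. In the averaged inhibitor test 3 of the 40 were under 0.05, beside 8.76% of clusters, and 0 under 0.01. Angptl8 differed by -0.31 (adjusted p = 0.5), Acsbg2, a synthetase outside the Acsl family, by -0.35 and Sel1l, which acts with Lmf1 on the lipase in the endoplasmic reticulum, by 0.26, the last with adjusted p of 0.53 and 0.57. Leaving out the ALA array of passage 7 gave -0.30, -0.27 and 0.16, and Angptl8 alone of these stayed under 0.05.

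Slc27a2, the transporter FATP2 of liver and kidney, gave the largest treatment difference among the 40, at a signal far below the array median. It measured 3.74 ± 0.42 in control and 3.07 ± 0.35 with ALA, a difference of -0.66 (SE 0.24, limma adjusted p = 1). It measured 3.70 ± 0.13 with the inhibitor and 3.03 ± 0.39 with both, again a difference of -0.66 (adjusted p = 1). Without the ALA array of passage 7 the former was -0.59. The averaged ALA test gave -0.66, under the unadjusted threshold of 0.01 but with an adjusted p = 1. That made 1 of 40 called in this test, beside 0.575% of clusters, and 0 after adjustment.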

How the data were processed

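RNA from 12 cultures was hybridised to arrays. The authors deposited log2 signals, 1 for each transcript cluster on each array. The submitters' processing notes name RMA, a method that subtracts background, normalizes arrays to a common distribution and summarises probes. This compresses differences between dim signals. Its software and version are not given in the sources used here. Arrays have no read depth, and their number limits precision.

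All 22104 clusters entered the fits as deposited. The array annotation named 19509 clusters with 1 symbol, 0 with several and left 2595 unnamed. For a gene with several clusters the one with the highest mean was used. Tests were made with limma 3.58.1 in R 4.3.3 (lmFit and eBayes, two-sided), checked on simulated data: 1 coefficient per treatment over 12 arrays (8 residual and 4.66 prior degrees of freedom), and treatment plus passage for passage (6 and 3.96). The simulated arrays had independent noise, with no correlation between arrays of the same passage. That check therefore does not cover the effect of shared passages on the tests. A gene was called at the series' unadjusted p under 0.01 and, separately, at a Benjamini-Hochberg adjusted p under 0.05 over all clusters. Fold values are 2 to the power of the log2 difference.

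The members and lists were chosen with earlier results of these data known. In the pathway lists, genes with p under 0.05 are named, with Angptl4 and Gpihbp1. For likeness, the 3 genes with the highest Pearson r are named. Same-passage arrays were checked for pairing by the correlation of their deviations from group means, which was 0.16, 0.16 and 0.24 for both agents against ALA. There the block is given beside the results. Alternatives were the block, fits on the compared arrays, quantile normalization, median centring, array weights, an intensity trend, leaving out the dimmest 30% of clusters, and leaving out single arrays and passages. Promoters came from RefSeq (GRCm38.p6), which matched 5 of the 8 genes.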

Additional observations from a re-analysis of the deposited data

How the results depend on the processing

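Counts of called genes at p under 0.01 moved in 4 comparisons. With passage as a replicate block, 1 of the 8 genes was called for inhibitor against control (Acsl4, adjusted p = 0.67; 1.46% of clusters), 2 for both agents against ALA (2.54%) and 3 for the inhibitor averaged over both media (3.39%), beside 0 without it, and 0 of 8 passed the adjusted threshold. The block changed no other call. Leaving out single arrays gave 0 to 1 calls for both agents against ALA and 0 to 1 for the averaged inhibitor test. The passage comparison had 0 calls with treatment left out of the model (5.68% of clusters) and 2 to 3 with single arrays left out. After adjustment its count of 1 became 3 with an intensity trend (5.26% of clusters), 2 with array weights (3.12%), without the dimmest 30% of clusters (4.65%) or without the ALA array of passage 7 (2.68%), and 0 on the 8 arrays compared (0.796%) or with treatment left out (1.74%), against 1.91%. Same-passage arrays correlated, as deviations from their group means, at 0.01, 0.34 and 0.46 for ALA against control, 0.19, 0.08 and 0.36 for inhibitor against control, and 0.14, 0.09 and 0.27 for both agents against the inhibitor. All were positive, but each comparison held a passage at 0.09 or less, so the block was kept as an alternative there. The main p-values therefore leave out any pairing by passage. For inhibitor against control the block gave an SE of 0.11 for both Fabp5 and Acsl4, beside 0.17 and 0.20 without it.

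Of 1264 single-gene alternatives, 695 that left out an array and 446 others kept their direction and side of the threshold. In the same order, 3 and 6 gained a call, 8 and 5 lost a call, and 62 and 39 changed sign, none of them a called difference. The cause was not tested. Array weights gave 0.13, 0.05, 0.04 and 0.17 for Cd36, Lpl, Fabp4 and Acsl5 with ALA, -0.03, -0.09 and -0.02 for Lpl, Fabp4 and Acsl5 in both against ALA, and interactions of -0.11, -0.07 and -0.20 for Cd36, Fabp4 and Acsl5. Quantile normalization gave 0.01 for Lpl with ALA, -0.01 and -0.04 for Lpl and Fabp4 in both against ALA, 0.002 for Slc27a1 in both against inhibitor and 0.01 for Cd36 in the averaged ALA test. Median centring gave 0.01 for Fabp4 with the inhibitor, -0.004 and -0.02 for Cd36 and Slc27a4 in both against inhibitor, interactions of -0.01 for Acsl4 and Acsl5, and 0.02 for Lpl and Fabp4 in the averaged inhibitor test.

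Leaving passage 6 out of every group gave -0.05 and -0.01 for Cd36 and Slc27a4 in both against inhibitor. Without passage 7 the values were 0.04, 0.02, 0.01 and 0.04 for Cd36, Lpl, Fabp4 and Acsl5 with ALA, -0.11, 0.02 and -0.06 for Fabp4, Slc27a4 and Acsl5 in both against ALA, 0.03 and -0.05 for Slc27a1 and Slc27a4 in both against inhibitor, and interactions of -0.03 and -0.20 for Fabp4 and Acsl5. Without passage 8 they were 0.03 for Lpl with ALA, 0.01 and 0.08 for Slc27a1 and Acsl5 in both against inhibitor, and an interaction of -0.03 for Acsl4.

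Leaving out single arrays gave these ranges. With ALA they were -0.16 to 0.14 for Cd36, -0.07 to 0.07 for Lpl, -0.14 to 0.05 for Fabp4, -0.17 to 0.02 for Fabp5 and -0.27 to 0.18 for Acsl5. With the inhibitor they were -0.12 to 0.01 for Lpl and -0.08 to 0.02 for Fabp4. For both against ALA they were -0.02 to 0.06 for Lpl, -0.12 to 0.08 for Fabp4, -0.11 to 0.002 for Slc27a4 and -0.09 to 0.36 for Acsl5. For both against inhibitor they were -0.03 to 0.10 for Cd36, -0.08 to 0.005 for Fabp4, -0.25 to 0.03 for Fabp5, -0.14 to 0.09 for Slc27a1, -0.07 to 0.13 for Slc27a4 and -0.18 to 0.05 for Acsl5. Interactions ran -0.12 to 0.18 for Cd36, -0.08 to 0.12 for Fabp4, -0.18 to 0.10 for Fabp5, -0.17 to 0.20 for Acsl4 and -0.27 to 0.18 for Acsl5. In the averaged inhibitor test Lpl ran -0.05 to 0.02, Fabp4 -0.08 to 0.02 and Slc27a4 -0.01 to 0.09, and in the averaged ALA test Cd36 ran -0.07 to 0.08, Fabp4 -0.09 to 0.01 and Acsl5 -0.18 to 0.05.

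With 3 arrays a group, even the narrow 95% interval of Lpl for ALA against control ran from -0.24 to 0.23. Averaging clusters of a gene gave no other value, since each of the 8 genes had a single cluster, and the interaction, which uses all 4 groups, has no fit on 2 groups alone.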
